A study of Rattus norvegicus with 6 samples.

Results

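Chromatin accessibility after exposure to forskolin (FSK) was compared with the untreated control (CON) in INS-1 cells that carry the Med14 S983A mutation. INS-1 is a rat insulinoma line used as a model of the pancreatic beta cell. The comparison rests on 2 of the 6 ATAC-seq libraries of the study, the Med14 S983A FSK library and the Med14 S983A CON library. The other 4 libraries are Med14 S983A cells given Exendin-4 (Ex-4), and WT INS-1 cells left untreated, given Ex-4 or given FSK. Ex-4 was given at 10 nM and FSK at 10 µM, both for 1 h, and all cells were placed in medium without serum before treatment. Each condition has 1 library, so no test across libraries could be made, and every difference below describes these libraries. The study generated more than 1 Med14 S983A line, and neither the line assayed nor any pooling of cultures is stated in the sources used. Whether the cells carry beta cell markers was not analysed here, because no rn6 annotation was used.

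FSK activates adenylate cyclase and thereby raises cAMP, which releases the catalytic subunits of protein kinase A (PKA). PKA phosphorylates CREB, a transcription factor that binds cAMP response elements, and induces AP-1 factors among its early targets. In beta cells this pathway lies downstream of the GLP-1 receptor, for which Ex-4 is a stable agonist. Med14 is the scaffold subunit of Mediator, the complex that connects transcription factors with RNA polymerase II, and Ser983 is a PKA site in it that alanine removes in the mutant. ATAC-seq reads out where the Tn5 transposase inserts into DNA, so read density marks open regions such as promoters and enhancers.

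The table holds 220490 peaks merged from the 6 libraries, with 220487 of them off the mitochondrial chromosome. Of these, 146906 averaged at least 1 FPKM across all libraries and were examined. FPKM are fragments per kilobase of peak, scaled here to the reads inside each library's own peaks. Where a library's own list lacks a peak its value is 0, which is given as listed at 0. Reads in peaks, recovered from the steps between low FPKM values, came to 134300000 for the CON library and 163000000 for the FSK library. The CON list held 119024 peaks and the FSK list 144169. A peak was counted as opened when log2(FPKM + 0.5) was at least 1 higher in FSK than in CON, which is 2-fold on that scale, and as closed when it was at least 1 lower. The pseudocount of 0.5 makes changes of low peaks look smaller than the ratio of their FPKM.

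FSK in Med14 S983A cells opened 25612 peaks, 17.4% of those examined, and closed 13007, or 8.85%. Most of them were listed at 0 in one library. Among the opened peaks, 20223 were listed at 0 in CON, with a median of 3.82 FPKM in FSK. Among the closed peaks, 8854 were listed at 0 in FSK, with a median of 2.51 FPKM in CON. A peak that one list lacks passes the rule almost by construction, since 20223 of the 20347 peaks listed at 0 in CON alone and 8854 of the 8941 listed at 0 in FSK alone did so. The FSK library was also the deeper of the pair, and the part of depth in these calls was not tested. Another 17485 peaks were listed at 0 in both libraries. Without a filter 46762 peaks opened and 20413 closed. For these reasons the 100133 peaks with a value in both libraries are described apart.

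Among peaks called in both libraries, 5389 opened (5.38%) and 4153 closed (4.15%). The typical opened peak was weak in CON and stood above the median of all peaks called in both, 6.50 FPKM, after FSK. Its median was 2.35 FPKM in CON, with quartiles of 1.35 and 4.66, and 8.15 FPKM in FSK, with quartiles of 4.90 and 15.3. Closed peaks went from a median of 5.78 FPKM in CON, with quartiles of 3.68 and 10.6, to 2.09 FPKM in FSK, with quartiles of 1.20 and 4.11. Peaks that stayed within 2-fold had a median of 7.45 FPKM in CON and 6.71 in FSK.

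The distribution of changes was lopsided. Its median was -0.11 on the log2(FPKM + 0.5) scale, and 61.9% of peaks lay below 0, so that the bulk sat slightly lower in FSK. The upper tail was much longer than the lower one. At a change of at least 4-fold on the same scale, 839 peaks opened and 73 closed. At 1.5-fold the order turned, with 10955 opened and 14343 closed peaks. At 8-fold there were 97 opened peaks and none closed, and at 16-fold 7 opened peaks and none closed. Without the pseudocount, the ratio of FPKM was at least 8-fold at 257 opened and 15 closed peaks. Relative to the median of -0.11, 6573 peaks opened and 2838 closed, so opened peaks made up 69.8% of those that moved against 56.5% as deposited. Quantile normalization of the pair turned that share to 23.9%. FPKM in each library are shares of reads inside its own list, and the FSK list was the longer one. The part of this in the median shift was not tested.

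**Figure D1:**
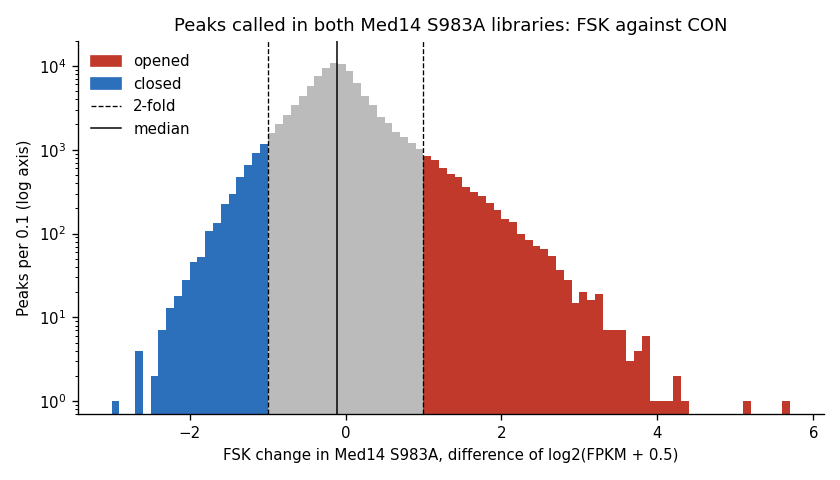
Histogram of the FSK change in Med14 S983A cells for the 100133 peaks with a value in both libraries, in bins of 0.1 on the log2(FPKM + 0.5) scale with a log count axis. Red bars are the 5389 opened and blue bars the 4153 closed peaks, dashed lines mark 2-fold, the solid line marks the median of -0.11, and the upper tail reaches farther than the lower one.

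Counting error was estimated at peaks already chosen by the 2-fold rule. An opened peak had a median of 144 reads in CON and 635 in FSK, and a closed peak 383 and 165. Exact binomial intervals (Clopper-Pearson, 95%) of the ratio excluded 1 at all 5389 opened and all 4153 closed peaks. At peaks chosen by their change that outcome was nearly set beforehand. The whole interval lay past 2-fold at 4532 opened peaks (84.1%) and 3124 closed peaks (75.2%). The ratio carries no pseudocount, so 2-fold is easier to reach on it than under the rule. These intervals cover counting error only, and the variation between cultures is not known. Fewer than 100 CON reads stood behind 1923 of the opened peaks (35.7%).

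Opened and closed peaks came from different ranges of basal accessibility. In the lowest decile of peaks by Med14 S983A CON level, up to 1.99 FPKM, 23.2% opened and 1.16% closed. In the highest decile, from 30.2 FPKM, 0.210% opened and 1.37% closed. Closing was most frequent in the middle, at 6.83% of the fourth decile, which spans 3.83 to 5.09 FPKM. The CON level enters the change itself, so these shares are a description. Called values also have a lower limit, with a first percentile in FSK of 0.568 FPKM between 400 and 800 bp. A peak low in CON therefore had little room to close and still be called, and the part of this was not tested. The WT CON library did not enter the change, though it is one of the 6 behind the filter. Its deciles were taken over the 88575 peaks also called in both WT libraries, 4076 opened and 3728 closed ones among them. From the lowest to the highest decile by WT CON FPKM the share opened went from 14.9% to 0.474%, and the share closed went from 2.17% through 5.69% in the fifth decile to 2.61%. Of the 10041 peaks called in both Med14 S983A libraries but listed at 0 in WT CON, 1305 opened (13.0%) and 177 closed (1.76%). Peaks opened in Med14 S983A had a median of 2.44 FPKM in WT CON, closed peaks 7.43 and peaks within 2-fold 7.47.

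The strongest sites of untreated Med14 S983A cells moved little. The peak with the highest CON value, at chr4:77447566-77448627 (rn6), measured 407 FPKM in CON, and 376 and 364 FPKM after Ex-4 and FSK. In WT cells it measured 405, 383 and 286 FPKM in the same order. The next 4, on chromosomes 9, 14, 14 and 1, lay between 126 and 138 FPKM in CON and between 109 and 130.0 in FSK. Changes over all 5 ran from -0.22 to -0.06.

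Moving peaks were of middle length. Opened peaks called in both libraries had a median length of 497 bp, with quartiles of 365 and 668 bp, and closed peaks 538 bp, with quartiles of 397 and 703 bp. Peaks within 2-fold had nearly the same median, 539 bp, but a wider spread, with quartiles of 333 and 817 bp. The share opened was 1.36% up to 200 bp, reached 7.60% between 400 and 600 bp and was 1.62% above 1200 bp. The share closed was 0.969%, 5.77% and 0.778% in the same classes, with its highest value of 5.96% between 600 and 800 bp. Over all opened peaks the median length was 267 bp, and over all closed peaks 333 bp, against 422 bp for all peaks examined, because peaks listed at 0 in a library are short. Of the opened peaks listed at 0 in CON, 39.4% were no longer than 200 bp, and of the closed peaks listed at 0 in FSK, 34.9%. Among all peaks called in both libraries this share was 8.97%. A merged peak grows with the lists that call it, and the lowest values of a library differ with length. The first percentile of called CON values was 1.07 FPKM up to 200 bp, 0.615 between 400 and 800 bp, 0.584 between 800 and 1600 bp and 1.75 above that. The part of this in the shares by length was not tested.

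**Figure D2:**
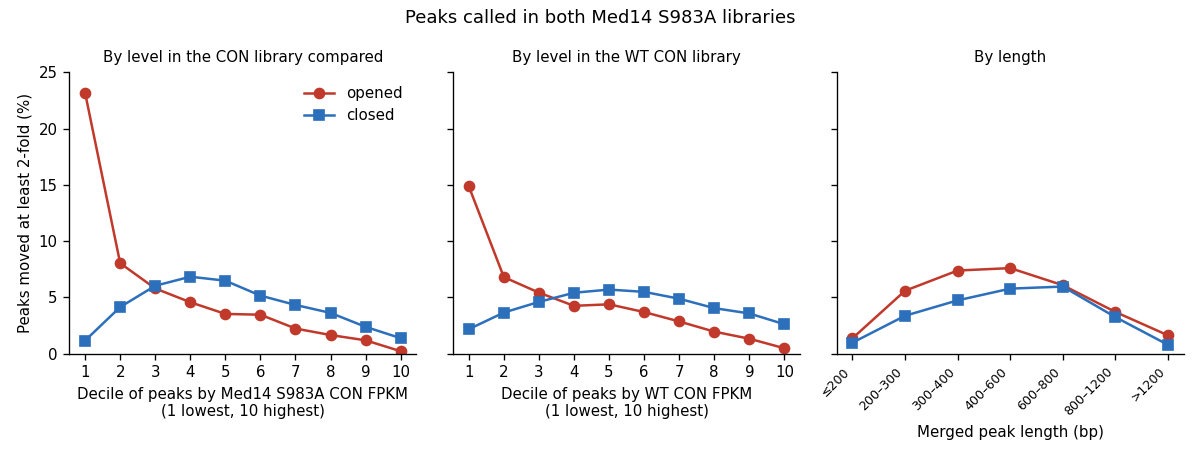
Percent of peaks called in both Med14 S983A libraries that opened (red) or closed (blue), by decile of Med14 S983A CON FPKM, by decile of WT CON FPKM (the 88575 of them also called in both WT libraries) and by merged length in bp. The opened share is 23.2% in the lowest decile by Med14 S983A CON and 14.9% in the lowest by WT CON, closing peaks in the middle deciles, and both are highest between 300 and 800 bp.

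The 6 peak lists showed where else the opened peaks were called. Of the 20223 opened peaks listed at 0 in CON, 8264 (40.9%) were called in the FSK libraries of both genotypes and in no other. These were short, with a median of 197 bp, and had a median of 4.27 FPKM in Med14 S983A FSK. All such shares depend on the filter, because a peak called in few libraries needs a high value there to average 1 FPKM over 6. With the filter on the Med14 S983A pair alone, chosen after seeing the data, 29543 opened peaks were listed at 0 in CON. They pass this filter through their Med14 S983A FSK value alone, so it too selects on the FSK level. Of these, 42.2% were called in the FSK libraries of both genotypes and in no other, against 8.91% of all peaks passing this filter. The pattern lacks the CON list, so 12466 of the 12472 peaks that show it fall in this class. Peaks called in Med14 S983A FSK and nowhere else numbered 7246 (24.5%, median length 120 bp) with this filter and 747 (3.69%) with that on all 6 libraries. They made up 5.18% of all peaks passing the filter on the pair. The WT FSK list held 69.6% of the peaks, against 92.4% with the filter on 6 libraries. Of all peaks passing each filter it held 83.7% and 91.4%. The Med14 S983A Ex-4 list held 26.4% against 40.5%, and 79.7% and 78.9% of all peaks. The WT CON list held 11.4% against 27.6%, and 69.3% and 79.7% of all peaks. WT FSK was also the deepest library.

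Closed peaks listed at 0 in FSK were spread over more patterns. With the filter on the pair, which they pass through their Med14 S983A CON value alone, they numbered 9049. Of these, 2282 (25.2%) were called in Med14 S983A CON and nowhere else, and 2112 (23.3%) were missing from the Med14 S983A FSK list alone. The latter share was 45.4% of the 8854 with the filter on 6 libraries. Of the 9049, the Med14 S983A CON and Ex-4 lists alone called 1500 (16.6%). The 4 CON and Ex-4 lists, without either FSK list, called 801 (8.85%). Of all peaks passing the filter on the pair, these 4 patterns held 1.64%, 1.51%, 1.07% and 0.572%. All of them lack the Med14 S983A FSK list, as every peak of this class does. Among peaks called in both libraries, 73.1% of the opened and 89.2% of the closed peaks were on all 6 lists, against 86.4% of all such peaks. Another 594 opened peaks (11.02%) were on the 3 Med14 S983A lists and the WT FSK list but on neither other WT list.

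The WT libraries gave the same measure in samples that did not set a peak's change, although their levels entered the filter. WT FSK against WT CON opened 20.4% of the peaks examined and closed 7.39%. Among the 112215 peaks called in both WT libraries it opened 7.16% and closed 5.3%, around a median change of -0.14. Of the 5389 peaks opened in Med14 S983A, 4417 (82.0%) also opened in WT, where the background was 10.5% of all peaks called in both Med14 S983A libraries, and 97.3% were higher in WT FSK than in WT CON. Of the 4153 closed peaks, 2029 (48.9%) also closed in WT, where the background was 4.67%, and 94.0% were lower. The median WT change was 1.65 over the opened and -0.99 over the closed peaks, against -0.09 over all peaks called in both Med14 S983A libraries. With the filter on the Med14 S983A pair alone, 81.0% of 5486 opened and 48.3% of 4198 closed peaks moved the same way in WT. The background with this filter was 10.6% opened and 4.69% closed in WT.

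This held without any value of 0. Of the 88575 peaks called in all 4 CON and FSK libraries, 4076 opened in Med14 S983A and 5310 in WT, and 3228 opened in both, which is 79.2% of the Med14 S983A list and 60.8% of the WT list. Closed peaks overlapped less, with 1781 shared, 47.8% of the 3728 closed in Med14 S983A and 55.8% of the 3194 closed in WT. The WT background over the 88575 peaks was 5.99% opened and 3.61% closed. Median WT changes were 1.46 for the peaks opened and -0.98 for those closed in Med14 S983A, against -0.13 over all 88575. With peaks listed at 0 included, the median WT change was 2.73 over the 25612 opened and -0.82 over the 13007 closed peaks, against -0.03 over all peaks examined. These medians are partly set by the filter, which peaks at 0 in a Med14 S983A library can pass through WT values, and were 2.24 and -0.55 with the filter on the pair. Over all peaks examined, 19684 opened peaks were shared, or 76.9% of the Med14 S983A list and 65.6% of the WT list, and 5130 closed peaks, or 39.4% and 47.2%. With the filter on the pair, 66.2% of the opened and 32.8% of the closed peaks in Med14 S983A moved the same way in WT. Of all peaks passing that filter, 21.5% opened and 5.20% closed in WT.

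Among the same 88575 peaks, the share also opened in WT grew with the size of the change. It was 69.7% of 2541 peaks with a change of 1 to 1.5 in Med14 S983A, 92.9% of 1019 with 1.5 to 2, 98.7% of 463 with 2 to 3, and all 53 of those above 3. For closed peaks it was 42.9% of 3162, 73.1% of 501 and 87.7% of 65 over the first 3 of these ranges. The WT change of the 3728 closed peaks had quartiles of -1.26 and -0.74.

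**Figure D3:**
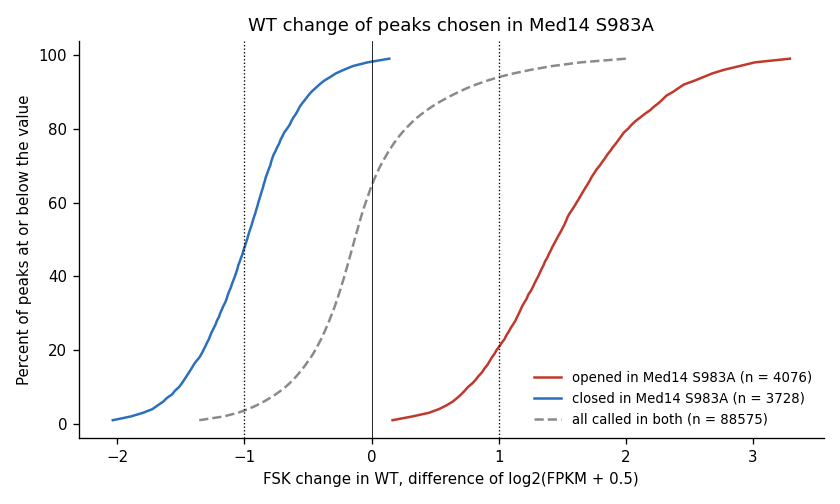
Cumulative share of peaks by their FSK change in WT on the log2(FPKM + 0.5) scale, for the 4076 peaks opened and the 3728 closed in Med14 S983A and for all 88575 peaks called in the 4 CON and FSK libraries. The opened curve lies to the right of the others with a median of 1.46, the closed curve to the left with a median of -0.98, and dotted lines mark 2-fold.

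The Med14 S983A Ex-4 library shares its CON library with the FSK comparison, so its levels are only set beside the others. Over the 5244 opened peaks with an Ex-4 value, the median was 2.40 FPKM in CON, and 4.03 and 8.30 FPKM after Ex-4 and FSK. Over the 4133 closed peaks with an Ex-4 value, it was 5.80, 4.74 and 2.10 FPKM in the same order. In WT the medians were 2.52, 3.51 and 10.4 FPKM over the opened peaks, and 7.47, 6.52 and 3.48 over the closed peaks. Ex-4 medians stood between CON and FSK in both genotypes, and nearer to CON. The peaks were chosen by FSK against CON in Med14 S983A, which favours an intermediate level in a further library of that genotype.

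Closing varied more between chromosomes than opening. By chromosome, the share of peaks called in both that closed ran from 1.72% on chromosome 10 and 1.84% on chromosome 12 to 6.55% on X. The share that opened ran from 3.92% on X to 6.23% on chromosome 4. The median change was 0.03 on chromosome 10 and -0.23 on X. Over the 21 chromosomes the median change went with the number of examined peaks per Mb (Pearson's r = 0.89, Spearman's rho = 0.78, and r = 0.85 without the 2 chromosomes farthest from the median density). It also went with the median WT change (r = 0.86, rho = 0.81). The peaks per Mb include those listed at 0 in CON that opened, and the part of this was not tested. All chromosomes share the same libraries, so these values are descriptive.

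Local density, counted within 25 kb, showed the same gradient. It counts all examined peaks, also those listed at 0 in CON that opened, so it is not independent of the change. The part of this was not tested. With at most 1 other peak within 25 kb, 3.43% of peaks called in both opened and 7.56% closed. With 15 or more, 10.6% opened and 1.74% closed. Median changes went from -0.27 to 0.05 over these classes in Med14 S983A, and from -0.22 to -0.03 in WT for the same peaks. Median length (503 and 484 bp) differed little between the sparsest and the densest class, while the median CON level was 4.79 and 7.83 FPKM.

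Up to 100 kb, the next peak moved the same way more often after a moved peak than after any peak, though mostly it did not. Within 1 kb, the next peak called in both opened after 125 of 726 opened peaks (17.2%), against 5.21% after any peak. It closed after 67 of 434 closed peaks (15.4%), against 3.43% after any peak. At 20 to 100 kb the shares were 7.85% for opened pairs, against 4.70%, and 10.8% for closed pairs, against 5.31%. Beyond 100 kb an opened peak followed an opened one in 2.42% of pairs, against 3.82%, and a closed peak a closed one in 10.4%, against 6.90%. Neighbouring peaks can be pieces of one accessible region. In windows of 100 kb, 4063 held an opened and 3448 a closed peak, of 21079 windows with a peak called in both, and 607 held one of each.

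A few neighbourhoods opened at most of their peaks. They were singled out after their values were seen, as adjoining windows of 100 kb with at least 5 peaks called in both libraries of which at least 50% moved one way. There were 34 such neighbourhoods of opened peaks and 29 of closed peaks, out of 8549 windows with at least 5 peaks called in both. They held 187 of the 5389 opened and 98 of the 4153 closed peaks, and some only just met the 50%. The foremost spanned chr1:52600898-52800116. In it 28 of 31 peaks called in both opened and none closed, with a median of 1.71 FPKM in CON, and of 6.39 and 15.2 FPKM after Ex-4 and FSK. CON values there ran from 0.36 to 11.6 FPKM and FSK values from 6.10 to 34.9. Another 97 peaks of the region were listed at 0 in CON and opened, so that 125 of its 163 examined peaks opened and 3 closed. In WT cells the region held 19 called peaks in CON and 150 with FSK, and 28 of the 31 peaks opened in WT as well. Opening was less frequent outside it, but above the 5.38% of all peaks called in both. Of such peaks, 9 of 44 opened in the 500 kb before it and 8 of 56 in the 500 kb after it. Of all examined peaks in these flanks, 41 of 91 and 21 of 77 opened, against 17.4% of all those examined. The edges of the region follow the 100 kb windows, and opened peaks also lay just outside them.

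The next neighbourhood, chr9:111024843-111191064, opened at 23 of 29 peaks called in both. Its median was 2.27 FPKM in CON, and 4.60 and 8.62 FPKM after Ex-4 and FSK. The WT CON library listed 18 of these 29 peaks at 0. It lies in a stretch of chromosome 9 where Med14 S983A libraries read higher than WT. Over its 1000 peaks called in all 6 libraries, medians were 10.3, 10.5 and 9.92 FPKM in Med14 S983A CON, Ex-4 and FSK, and 6.34, 6.55 and 6.46 FPKM in WT. That stretch, chr9:79471184-111212494, had a median FSK change of -0.07 and 9.18% of its peaks opened. The third stood on chr5:12411661-12496211, with 11 of 18 peaks opened, and the fourth on chr4:58313305-58399727, with 9 of 13. Closed neighbourhoods were smaller. On chr1:2214661-2293402, 5 of 9 peaks closed, with a median of 6.58 FPKM in CON, and of 6.61 and 3.85 FPKM after Ex-4 and FSK. On chr1:112600647-112689069, 5 of 7 peaks closed, with medians of 11.8, 10.3 and 7.74 FPKM.

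**Figure D4:**
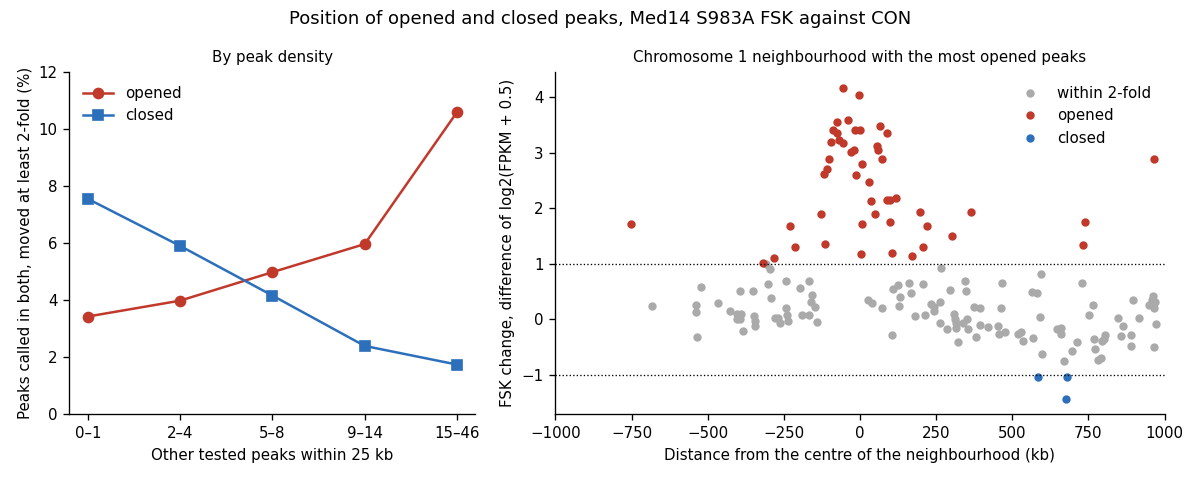
Left, percent of peaks called in both Med14 S983A libraries that opened (red) or closed (blue) by the number of other examined peaks within 25 kb. Opening goes from 3.43% to 10.6% and closing from 7.56% to 1.74%. Right, FSK change of each peak called in both by its distance in kb from the centre of the chromosome 1 neighbourhood, where 28 of 31 peaks lie above the dotted 2-fold line.

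The strongest opened peaks, taken by the size of their rise, read low in the Med14 S983A CON library. Choice by the size of the rise favours low CON values, so these levels only describe the selected peaks. At chr17:57092970-57094371 accessibility was 0.186 FPKM in CON, and 6.75 and 33.5 FPKM after Ex-4 and FSK. WT cells measured 20.7 FPKM there with FSK and 3.60 with Ex-4, and the peak was listed at 0 in WT CON. The 35 reads in CON and 7639 in FSK gave a ratio of 179.8, with a counting interval of 129 to 258. A library that called only a piece of a merged peak can read low over the whole, and the counting of such peaks is not described in the sources used.

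At chr12:16085632-16086037 the values were 0.478, 10.1 and 35.3 FPKM for CON, Ex-4 and FSK, and WT cells had 31.3 FPKM with FSK and were listed at 0 in CON and Ex-4. At chr9:97742515-97743244 they were 0.756, 5.83 and 25.1 FPKM, and in WT listed at 0, 1.80 and 16.6 FPKM. The FSK libraries of both genotypes were the highest at these 3 peaks. The last of them lies in the chromosome 9 stretch described above, where Med14 S983A libraries read higher than WT. The peak at chr20:10671076-10672305 differed in WT. It measured 0.370, 1.504 and 16.5 FPKM in Med14 S983A CON, Ex-4 and FSK, while WT cells started at 8.93 in CON, with 13.8 for Ex-4 and 25.2 for FSK.

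A pair of the strongest opened peaks came from the chromosome 1 neighbourhood described above. The peak at chr1:52643046-52643723 measured 0.935, 7.39 and 25.3 FPKM for CON, Ex-4 and FSK, and the one at chr1:52697160-52698214 measured 0.360, 3.51 and 13.7 FPKM. Both were listed at 0 in WT CON and had 24.4 and 13.6 FPKM in WT FSK. The peak at chr4:58064560-58066209, 1649 bp long, went from 0.501 FPKM in CON to 18.8 in FSK. The last 3 of the 10 had values in all 6 libraries. At chr5:122377348-122377791 the levels were 1.33 FPKM in CON and 28.7 in FSK, against 0.805 and 20.8 in WT. At chr7:132885985-132886573 they were 0.633 and 16.3, against 0.752 and 18.9 in WT. At chr18:80740394-80740965 they were 1.00 and 21.2, against 0.601 and 15.4 in WT. In these 3 the levels of both genotypes were within 2-fold of each other in CON and in FSK.

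The strongest closed peaks moved less. At chr3:3934049-3934517 accessibility was 22.5, 14.9 and 3.07 FPKM for CON, Ex-4 and FSK, and in WT it was 9.11 and 6.81 FPKM for CON and Ex-4 and listed at 0 for FSK. At chr4:146786442-146787093 it was 24.95, 9.26 and 4.16 FPKM in Med14 S983A and 44.3, 23.3 and 5.31 in WT. Ex-4 and FSK values were both below CON in each genotype, with FSK the lower. The 2182 CON and 441 FSK reads of this peak gave a 6.003-fold lower level in FSK, with a counting interval of 5.42 to 6.67. At chr16:25704745-25705415 the values were 5.40, 2.81 and 0.467 FPKM, and 10.2, 7.23 and 1.82 in WT.

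At chr17:89275033-89275661 accessibility was 8.58 FPKM in CON and 0.909 in FSK, against 7.77 and 1.60 in WT. At chr4:135145232-135145710 it was 8.43 and 0.924 FPKM, against 22.8 and 5.83 in WT, and at chr5:69962169-69962776 it was 6.55 and 0.839 FPKM, against 30.8 and 8.10 in WT. WT cells had the higher level at the last 2 in CON and in FSK. The largest fall of all, at chr2:247229710-247230070, rested on 4 reads in FSK and 182 in CON. Its level was 3.76 FPKM in CON and 0.068 in FSK, a ratio of 0.0181 with a counting interval of 0.00488 to 0.0472. WT cells had 2.40 and 1.14 FPKM there. The remaining 3, on chromosomes 13, 16 and 3, were between 8.24 and 8.82 FPKM in CON and between 1.15 and 1.29 in FSK.

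**Figure D5:**
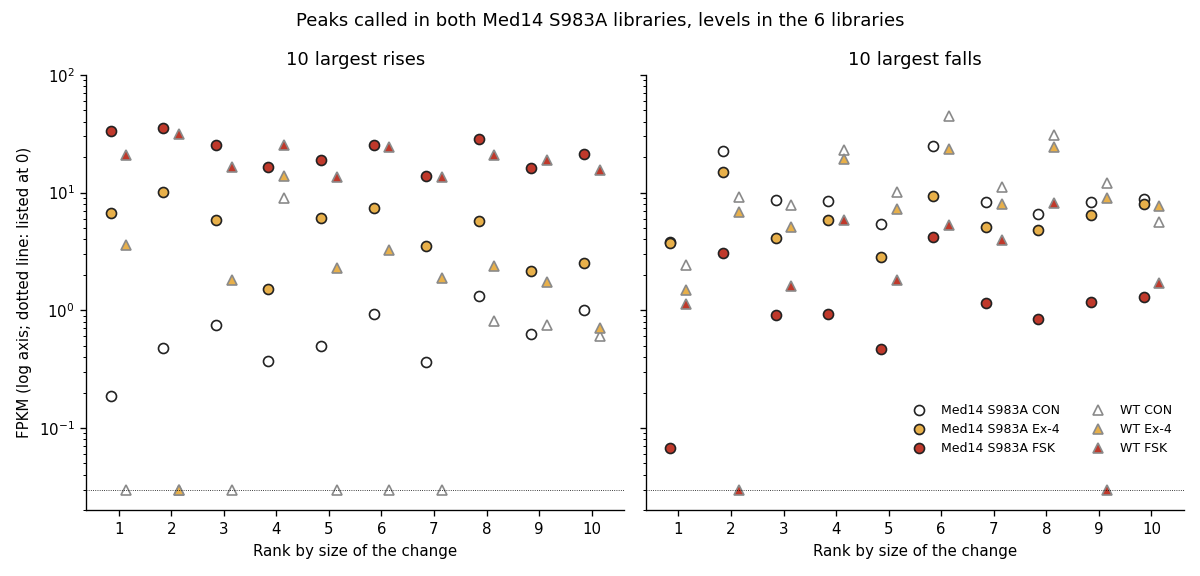
FPKM on a log axis of the 10 largest rises and the 10 largest falls among peaks called in both Med14 S983A libraries, in all 6 libraries (circles Med14 S983A, triangles WT, white CON, yellow Ex-4, red FSK). The 10 risen peaks reach from 13.7 to 35.3 FPKM in Med14 S983A FSK, and 6 of them are listed at 0 in WT CON, drawn on the dotted line.

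Peaks listed at 0 in CON with the highest FSK level often stood beside peaks that CON did call. At chr7:12406508-12406978 the FSK level was 71.1 FPKM and the Ex-4 level 31.3, and WT cells had 17.6, 49.3 and 78.3 FPKM for CON, Ex-4 and FSK. A called peak 360 bp after it had 35.6 FPKM in CON and 76.1 in FSK. At chr7:11820529-11820946 the levels were 60.8 FPKM with FSK and 19.0 with Ex-4, with 50.5 in WT FSK, and the other 3 libraries listed it at 0. At chr1:221205830-221205990, 160 bp long and on no other list, the FSK level was 64.7 FPKM, and a peak 111 bp before it had 99.4 in CON and 109.5 in FSK. At chr1:221201363-221201521 it was 60.2 FPKM, with 27.5 in WT FSK. The fifth, at chr20:48786641-48786736, was 95 bp long and was listed at 0 in all libraries but this one, where it had 54.3 FPKM.

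The 5 strongest closed peaks listed at 0 in FSK were also short, from 102 to 357 bp. At chr20:56193528-56193630 the CON level was 60.7 FPKM and the Ex-4 level 54.0, with every other library listed at 0, and a called peak 175 bp before it had 55.0 FPKM in CON and 48.6 in FSK. At chr9:82158504-82158682 CON measured 59.1 FPKM, Ex-4 45.7 and WT CON 23.7. This peak lies in the stretch of chromosome 9 described above, where Med14 S983A libraries read higher than WT. At chr7:12404506-12404660 the values were 40.4 FPKM in CON and 35.6 with Ex-4, and in WT 37.2 and 33.8, with both FSK libraries listed at 0. A called peak 97 bp after it had 79.5 FPKM in CON and 104 in FSK. Over all 20223 opened peaks listed at 0 in CON, 25.5% had a neighbour within 1 kb that CON called, close to the 25.2% of all peaks examined. For the 8854 closed peaks listed at 0 in FSK the share was 26.7%, and 28.5% for all peaks.

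The 2-fold limit fell within a continuous distribution. The 3 peaks just inside it on the opened side had changes of 1.00, among them chrX:136399211-136399663 with 4.71 FPKM in CON and 9.92 in FSK. Just outside it, chr3:72142019-72144290 had 8.85 and 18.2 FPKM and chr13:112059951-112060894 had 23.6 and 47.7. Just inside on the closed side, chr6:123290561-123291290 had 3.18 FPKM in CON and 1.34 in FSK, while WT had 14.6 and 15.2. Just outside, chr7:86254070-86254361 had 3.33 and 1.41 FPKM, and 2.99 and 1.41 in WT.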

How the data were processed

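ATAC-seq of INS-1 cells was analysed from 1 library per condition, with groups taken from the sample labels. Per the study's methods, nuclei were tagmented, reads were trimmed (Trim Galore) and mapped to rn6 (bwa mem), and mitochondrial, low quality and duplicate reads were removed with samtools before peak calling in macs2. The authors deposited 1 table of FPKM over the merged peaks, made by HOMER according to its header, with the lists that call each peak. The sources used here do not state whether fragments were shifted for the Tn5 cut before FPKM were computed.

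From these values the difference of log2(FPKM + 0.5) was taken for peaks off the mitochondrial chromosome averaging at least 1 FPKM across all 6 libraries, with a 2-fold size rule and no p-value. The filter uses all libraries, so a peak may pass it through 1 high library. Counts that this could set were repeated for peaks averaging at least 1 FPKM in the pair compared, an alternative chosen after seeing the data. A peak listed at 0 in one library of the pair passes that alternative through the other alone. In the pair compared, FPKM multiplied by peak length came to 98.8% (FSK) and 99.0% (CON) of the total the unit sets, so the denominator is reads inside that library's called peaks. No peak called in a library was listed at 0 there, and at most 17 examined peaks per library had a value without being called. Low values lay within 0.15 of whole steps (100% of 9862 in CON and 19506 in FSK), from which reads were recovered. Ratios received exact binomial intervals (Clopper-Pearson, 95%) that cover counting error only. Whether a step is a whole fragment or a single mate is not known.

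Peaks named are the 10 largest rises and the 10 largest falls among peaks called in both libraries, the 5 highest in FSK among opened peaks listed at 0 in CON, the 5 highest in CON among closed peaks listed at 0 in FSK, the 3 on either side of the 2-fold limit in each direction, from which examples are printed, and the 5 highest in CON. Members, rules and lists were chosen with earlier results of these data known. Genes, motifs and sequences were not analysed here, because no rn6 annotation or genome was used. Alternatives were other pseudocounts, filters, size rules and normalizations, and the removal of 4 stretches of chromosomes 4, 5, 9 and 15 where the genotypes differ. Restriction to peaks called in all 6 libraries and ratios without a pseudocount were added after seeing the data. The calculation was tested on simulated reads. Computation used Python 3.11.15 with numpy 2.4.6, scipy 1.17.1 and pandas 2.3.3, and plots used matplotlib 3.10.9.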

Additional observations from a re-analysis of the deposited data

Results flagged for a closer look

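A few peaks called in both Med14 S983A libraries moved at least 2-fold in opposite directions in the 2 genotypes. There were 8 peaks that opened in Med14 S983A and closed in WT, and 21 that closed in Med14 S983A and opened in WT, of 5389 opened and 4153 closed peaks. Only 1 of the 8 and 1 of the 21 had values above 0 in both WT libraries, and the others were listed at 0 in WT CON or WT FSK. Among these others, chr5:12453968-12454382 went from 1.30 to 5.47 FPKM in Med14 S983A and from 2.26 FPKM to listed at 0 in WT, and chr2:29611760-29611974 went from 32.4 to 15.9 FPKM and from listed at 0 to 8.93. Both were chosen after their values were seen. With 1 library per condition the difference between genotypes was not tested.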

How the results depend on the processing

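Of the 108 values recomputed, 42 stayed close to those reported (counts within 1.5 times, medians inside their 95% order-statistic interval) and 66 moved further. No median change took the opposite sign, and counts and lengths cannot do so. The balance of directions did turn. Among moved peaks called in both libraries, 56.5% opened as reported, 23.9% after quantile normalization and 43.3% at 1.5-fold. The medians rest on so many peaks that small moves count. Opened peaks numbered 46762 without a filter and 8444 at a mean of 3 FPKM or more, and closed peaks 20413 and 5419. Closed peaks came to 21966 after quantile normalization, 23276 at 1.5-fold and 7028 at 4-fold. With a value in both libraries, 10955 peaks opened at 1.5-fold and 839 at 4-fold, and 14343 and 73 closed. Closed peaks of this kind numbered 2724 with a pseudocount of 1, 13025 after quantile normalization and 6292 by ratio without a pseudocount. The ranks behind quantile normalization include peaks listed at 0, of which CON has more. The part of this in its counts was not tested. Restriction to peaks called in all 6 libraries left 3942 opened and 3703 closed peaks, because it drops all those listed at 0.

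The median FSK change over peaks called in both was -0.12 with a pseudocount of 0.1, -0.11 with 1, -0.12 at a mean of 3 FPKM or more, 0 by construction after centring, -0.20 after quantile normalization, -0.12 without the 4 stretches and -0.12 on all 6 lists. The median WT change over opened peaks, 2.73 as reported, was 4.66 with a pseudocount of 0.1, 2.09 with 1, 1.85 without a filter, 1.88 at a mean of 3 FPKM, 2.24 with the filter on the Med14 S983A pair, 2.76 with at least 50 reads, 2.77 after centring, 2.91 after quantile normalization, 2.18 at 1.5-fold, 3.06 at 4-fold and 1.46 on all 6 lists. Over closed peaks, -0.82 as reported, it was in the same order -0.88, -0.74, -0.38, -0.93, -0.55, -0.84, -0.67, -0.60, -0.67, -0.63 and -0.98. Much of the opened value comes from peaks listed at 0 in WT CON, whose change depends on the pseudocount. The median length of opened peaks was 274 bp with a pseudocount of 0.1, 255 with 1, 210 without a filter, 381 at a mean of 3 FPKM, 205 with the filter on the pair, 275 after centring, 247 after quantile normalization, 297 at 1.5-fold, 225 at 4-fold and 552 on all 6 lists. That of closed peaks was in the same order 354, 294, 250, 448, 232, 312, 391, 410, 218 and 564 bp, and 345 bp with at least 50 reads. The cause of these moves was not tested beyond what each setting leaves out.

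No paired analysis was possible because no condition has more than 1 library, and no replicate can be left out. For opened and closed peaks, counting intervals were summarized only where both libraries had a value. The whole interval lay past 2-fold at 84.1% of these opened and 75.2% of these closed peaks. The part of depth in the calls was not tested, and variation between cultures is unknown.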

Other observations

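One stretch of chromosome 1, singled out after its values were seen, held peaks listed at 0 in opposite libraries side by side. Between chr1:221195536 and its last base at 221214120, 16 examined peaks were counted. Its first 6 peaks, called in both Med14 S983A libraries, all opened, from between 8.75 and 26.9 FPKM in CON to between 58.6 and 81.2 FPKM in FSK. The next was listed at 0 in CON with 60.2 FPKM in FSK, and the one after it was listed at 0 in FSK with 41.2 FPKM in CON. A later peak, chr1:221207243-221207876, had 44.1 FPKM in CON and 107 in FSK, and in WT it was listed at 0 in CON and had 57.0 FPKM with FSK. Summed over the 16 peaks, the peaks held 0.0318%, 0.0365% and 0.0550% of reads in peaks in Med14 S983A CON, Ex-4 and FSK, and 0.0135%, 0.0149% and 0.0208% in WT. These sums move with how many of the 16 each library called, 14, 14 and 15 in Med14 S983A and 7, 9 and 12 in WT.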
